A study of Homo sapiens with 4 samples.

Results

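Untreated cells of 2 established human hepatocellular carcinoma (HCC) lines, Huh7 and Hep3B, were compared gene by gene on 1 array each, which is 2 of the 4 arrays of the series. Both cultures had received DMSO, the solvent control, for which the labels give no time. The other 2 arrays held the same lines under 3 μM arsenic trioxide (ATO) for 7 days and served here as a second reading of the line difference that shares no array with the first. The platform was the Affymetrix U133 Plus 2.0 array, which reads a transcript with a set of short oligonucleotides, called a probe set. Of the 54675 probe sets, 41097 named 1 gene, and the brightest of these over the 4 arrays gave 1 intensity for each of 19775 genes, all of which are counted below.

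A ratio is the intensity of the array labelled Huh7 over that of the array labelled Hep3B, or the inverse where Hep3B was higher. Values under 32 were raised to 32 before a ratio was taken, so that noise between dim values does not enter, and a ratio limited in this way is called floored. A gene was called higher or lower at a ratio of 2 or more. Each line had 1 array and no replicate, so no ratio has an error of its own and no p-value can be given. Which of the media named in the methods each line grew in is not stated, so the line, the culture and the array cannot be told apart.

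The liver genes on the Huh7 array were not those the label would lead one to look for. Huh7 is widely known as a line that secretes albumin and alpha-fetoprotein. ALB, which encodes albumin, was at 155 on the Huh7 array and at 12803 on the Hep3B array, and AFP, which encodes alpha-fetoprotein, was at 91.8 and 3566. All 4 probe sets of ALB were lower on the Huh7 array, with floored ratios of 6.74 to 82.8, 3 of them being under 32 there. The ATO arrays of the lines gave the same order, with ALB at 358 and 10729.9 and AFP at 62.1 and 1646. The 2 arrays labelled Huh7 therefore both stood apart from what is known of the line, and every direction below is that of the arrays as labelled. By western blot, the paper reports that AFP, GPC3 and CK19 protein fell over time with ATO, without naming the line there. On the Huh7 array with DMSO, the RNA of GPC3 was at 29.3 and that of KRT19, which encodes CK19, at 5.53. The retinoblastoma gene RB1, whose loss is well known in Hep3B, was at 136 on the Huh7 array and 6.71 on the Hep3B array, and at 117 and 6.05 on the ATO arrays, so the Hep3B label was not contradicted. Only 1 of the 2 RB1 probe sets was above the floor. AXIN1, a scaffold of the beta-catenin destruction complex, read 88.5 and 77.1.

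Hepatocytes make most of the proteins of blood plasma, clear ammonia through the urea cycle, release glucose and conjugate drugs and hormones. These tasks are set up by a circuit of transcription factors that includes CEBPA, the FOXA factors and nuclear receptors paired with RXRA. Liver cancer cells keep this program in part, and may reopen genes of the fetal liver, such as AFP, GPC3 and DLK1, or genes that are otherwise silent outside the germline.

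Across all genes, 1416 were higher on the Huh7 array, or 7.16% of those measured, and 1350 were lower, or 6.83%. Among the 9164 genes with a mean of 64 or more over both arrays, the shares were 13.5% higher and 12.8% lower. At 16-fold or more, 45 genes were higher and 44 lower. All genes together had a median log2 ratio of 0 with the floor and 0.04 without it, and 8321 genes, or 42.1%, were under 32 on both arrays. The line difference was broader than the treatment difference within a line, for which 0.845% of genes in Huh7 and 1.53% in Hep3B passed 2-fold in either direction. Of 1000 called genes with at least 2 probe sets at 64 or more, 912 had every such probe set on the same side. The hybridization controls, which are added after labeling, differed by a median log2 of -0.04, and the poly-A controls, added before it, by 0.21, both without the floor. The shares of all genes given here are those against which the counts of the gene lists are to be read. On the ATO arrays 1169 of the 19775 genes were higher and 1299 lower. Those totals serve the same purpose for list counts given for the ATO arrays.

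**Figure D1:**
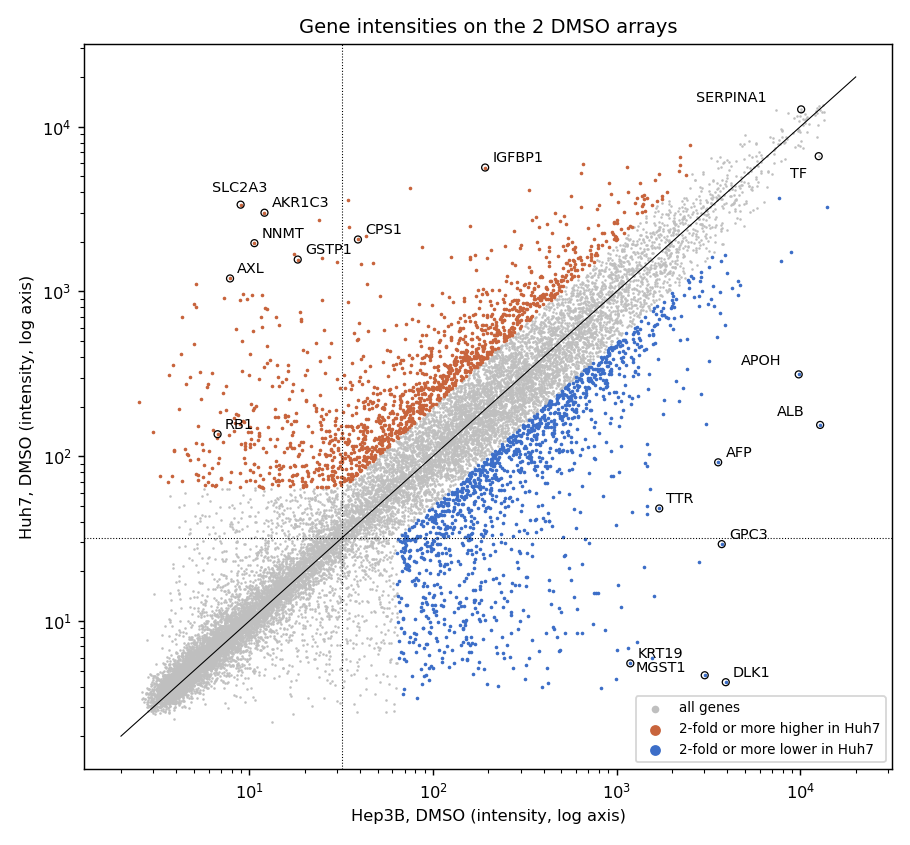
Each point is 1 of 19775 genes, with its intensity on the Hep3B array on the x axis and on the Huh7 array on the y axis, both log axes in the deposited intensity units; orange and blue mark the 1416 genes higher and the 1350 lower in Huh7 at 2-fold, and dotted lines mark the floor of 32. SERPINA1 and TF lie near the line of equal intensity, whereas ALB, APOH, AFP and DLK1 lie far to its right and SLC2A3, AKR1C3 and NNMT far above it.

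The second reading gave the same picture for most genes. Of the genes higher on the Huh7 array with DMSO, 959, or 67.7%, were also called higher on the ATO arrays, which is 82.0% of the 1169 genes called higher there. Of the lower genes, 982, or 72.7%, were also called lower, which is 75.6% of 1299. Only LGALS14 and PCDH9 were called in opposite directions on the 2 pairs. The largest loss of a called difference was in the aldo-keto reductases AKR1C1 and AKR1C2, which reduce steroids and reactive carbonyls. AKR1C1 stood at 4228 in Huh7 and 75.3 in Hep3B with DMSO, a 56.2-fold difference, and at 6957 and 5089 with ATO. AKR1C2 was at 2469 and 34.8 with DMSO and at 4054 and 2045 with ATO. Both are read from probe sets with the suffix _x_at, some of whose probes match other transcripts too. Their relative AKR1C3, read by a probe set without that ending, kept its difference, with 2999.8 and 12.1 under DMSO and 4378 and 61.6 under ATO.

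**Figure D2:**
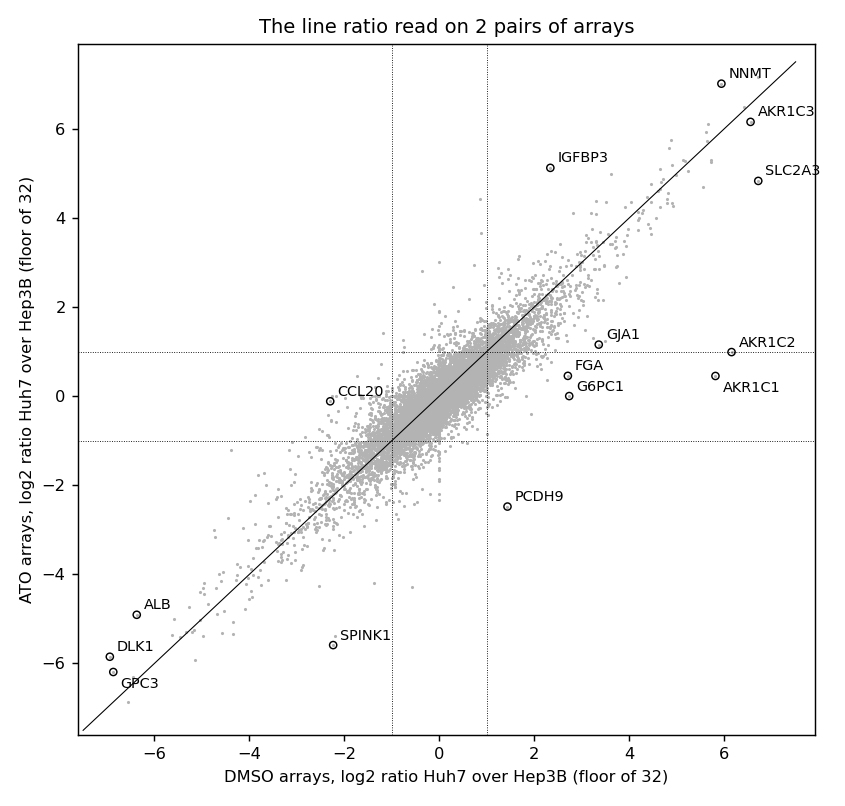
Each point is 1 gene, with its log2 ratio of Huh7 over Hep3B on the DMSO arrays on the x axis and on the ATO arrays on the y axis, both with the floor of 32; dotted lines mark 2-fold. Most called genes lie near the diagonal, AKR1C1 and AKR1C2 lie far below it, and PCDH9 is higher in Huh7 in one pair and lower in the other.

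Plasma proteins included some of the largest differences. Of 34 measured, 9 were lower in Huh7, 3 higher and 10 dim on both arrays, and the median log2 ratio was -0.17 with the floor and -0.52 without it. Among the 23 with a mean of 64 or more, the same 9 compare with 12.8% lower among all genes of that brightness. APOH, a lipid-binding plasma glycoprotein, was at 313 in Huh7 and 9788 in Hep3B, 31.2-fold lower in Huh7. TTR, the carrier of thyroxine and retinol-binding protein, was at 48.1 and 1704, a difference of 35.4-fold. The heme carrier HPX was at 45.5 and 628, and the mineral-binding carrier AHSG was at 1742 and 8928. AHSG was thus still bright on the Huh7 array, whereas TTR and HPX lay near the floor. The thyroxine carrier SERPINA7 was at 5.16 and 274.

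Other secreted proteins of hepatocytes were bright on both arrays. SERPINA1, the main elastase inhibitor of plasma, was at 12710.1 in Huh7 and 10091 in Hep3B. A further probe set of SERPINA1 read 6204.5 and 426, and these readings of the gene differ in size. TF, the iron carrier transferrin, was at 6610.1 and 12576, APOB, the structural protein of low-density lipoprotein, at 4109 and 5475. None of these 3 passed 2-fold on the probe set read for the gene. A dimmer probe set of TF read 69.9 in Huh7 and 279 in Hep3B, 3.99-fold higher in Hep3B. The fibrinogen chains went the other way from albumin. FGA was at 3008 and 461, FGB at 1012 and 209.5, and FGG at 5806 and 2224, so that all 3 were higher in Huh7, by 6.52-fold, 4.83-fold and 2.61-fold. On the ATO arrays the fibrinogen ratios were 1.37, 1.29 and 1.22, under the 2-fold rule.

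Proximal promoter sequence is shown for ALB, AFP, APOH and C4BPA, which were all far lower in Huh7, because each holds the letters GTTAAT, part of the site bound by the HNF1 factors of the liver. The stretches are the 150 bases before the annotated start, from RefSeq on GRCh38.p14, with the motif in capitals. They lie at chr4:73404137-73404286 on the plus strand for ALB, chr4:73436071-73436220 on the plus strand for AFP, chr17:66229416-66229565 on the minus strand for APOH and chr1:207104083-207104232 on the plus strand for C4BPA, all directly upstream of the gene.
ALB: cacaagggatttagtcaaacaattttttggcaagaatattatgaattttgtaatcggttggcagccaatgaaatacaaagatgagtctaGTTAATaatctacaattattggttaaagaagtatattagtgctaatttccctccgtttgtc
AFP: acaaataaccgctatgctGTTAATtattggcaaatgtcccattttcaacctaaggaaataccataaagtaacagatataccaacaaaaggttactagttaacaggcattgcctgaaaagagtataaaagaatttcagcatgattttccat
APOH: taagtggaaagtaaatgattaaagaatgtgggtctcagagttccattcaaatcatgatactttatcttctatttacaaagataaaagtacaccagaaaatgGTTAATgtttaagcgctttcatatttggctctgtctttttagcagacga
C4BPA: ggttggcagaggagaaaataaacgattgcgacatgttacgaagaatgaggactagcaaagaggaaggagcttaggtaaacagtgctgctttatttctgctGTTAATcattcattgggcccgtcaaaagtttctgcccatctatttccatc
The motif starts 61, 132, 49 and 50 bases before the start of transcription in ALB, AFP, APOH and C4BPA. How often it occurs in other promoters is given below with the genes that were dim in 1 line only. These genes were picked for being low in Huh7 and holding the motif. Promoters of secreted liver proteins that were bright or higher in Huh7, such as SERPINA1 and FGA, are not shown. No HNF1 factor is described here, and a role of these factors was not tested.

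Liver transcription factors were lower in Huh7 in 10 of 26 cases and higher in 1, with a median log2 ratio of -0.51 with the floor and -0.63 without it. Among the 22 with a mean of 64 or more, the 10 lower ones compare with 12.8% lower among all genes of that brightness. CEBPA, which drives hepatocyte genes and restrains division, read 337 in Huh7 and 2405 in Hep3B, and its relative CEBPB, which answers to cytokines, was at 1513 and 429. These 2 relatives therefore differed in opposite directions, by 7.14-fold and 3.53-fold. RXRA, the common partner of the nuclear receptors, was at 96.9 and 755, and NR0B2, the repressor induced by bile acids, was at 96.6 and 758. NR2F1, an orphan nuclear receptor, was at 5.99 and 335. FOXA1 was at 33.9 and 162, FOXA3 at 191 and 386, and FOXA2, which did not pass 2-fold, at 315 and 469.9. PROX1, a homeobox factor of early liver, was at 439.7 and 1416 with all 4 of its bright probe sets on the same side. GATA6 was at 13.9 and 134, and ONECUT2 at 76.4 and 370.4.

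**Figure D3:**
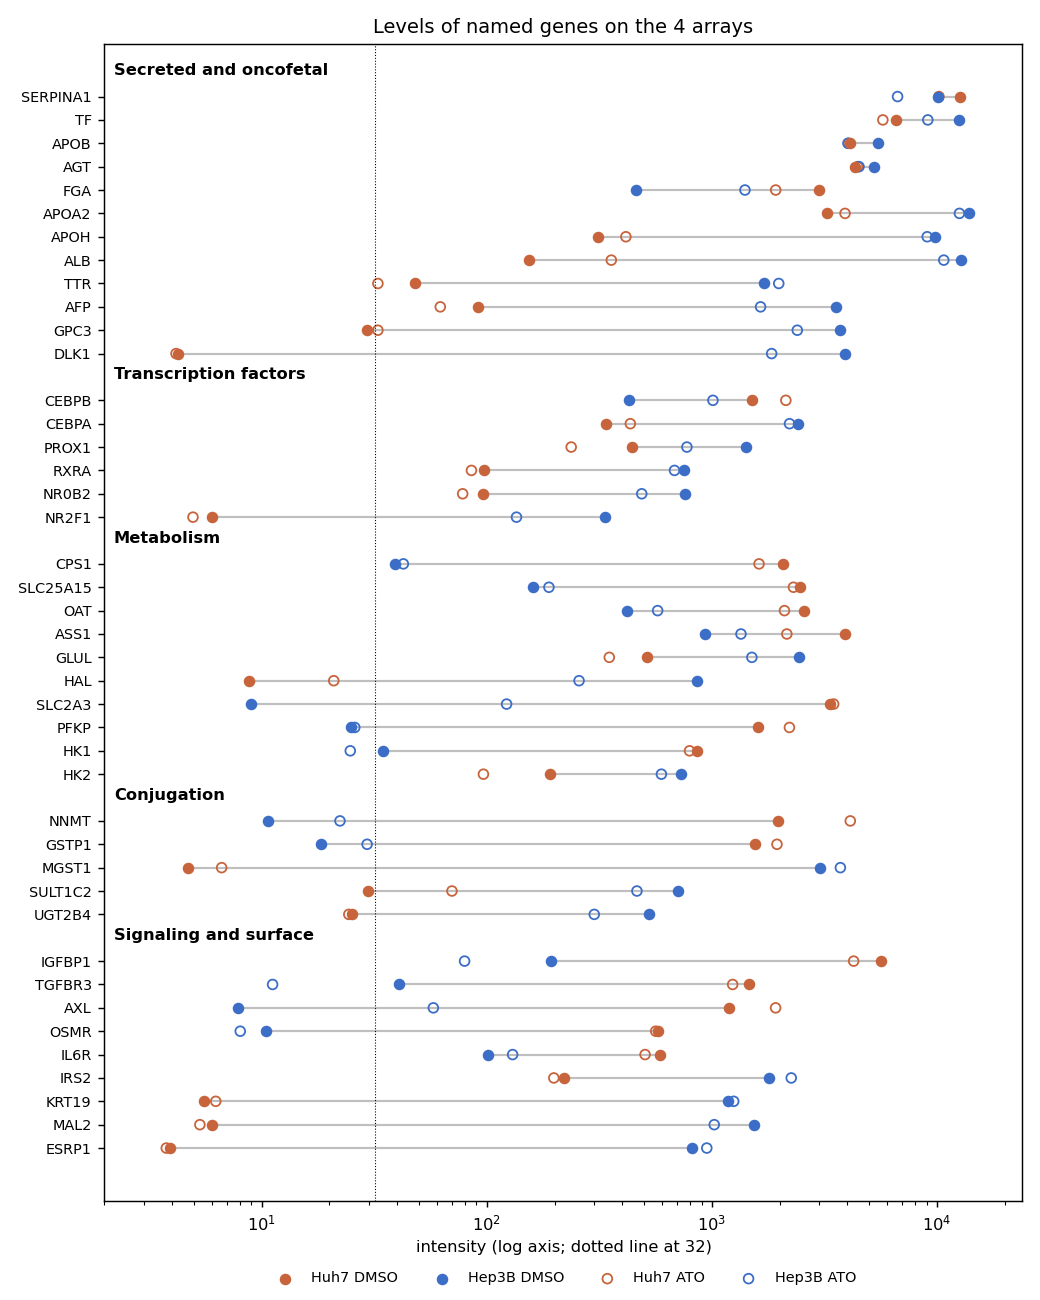
Filled points give the intensity of each gene on the DMSO arrays and open points on the ATO arrays, orange for Huh7 and blue for Hep3B, on a log x axis with a dotted line at 32; each point is 1 array. ALB, AFP, CEBPA and KRT19 have both blue points far to the right of both orange points, CPS1, NNMT and AXL the reverse, and the 4 points of FGA lie closer together with ATO than with DMSO.

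Oncofetal genes were called in both directions. GPC3, a surface heparan sulfate proteoglycan of fetal liver and HCC, was at 29.3 in Huh7 and 3729.7 in Hep3B, a floored ratio of 117. DLK1, a membrane protein of fetal hepatoblasts, was at 4.25 and 3923, a floored ratio of 123, from 1 of its 2 probe sets, the other being dim on all arrays. PEG10, an imprinted gene of retroviral origin, was at 377 and 3173, and the growth factor MDK was at 410.3 and 1326. In the other direction, PRAME, an antigen of tumors and testis, was at 274 and 17.3, GOLM1, a Golgi protein shed into serum, at 160.0 and 9.39, and LIN28B, which blocks maturation of let-7 microRNAs, at 1346 and 606. In all, 8 of 23 oncofetal genes were lower and 5 higher, and on the ATO arrays 6 were lower and 5 higher. At a mean of 64 or more, 8 of 19 were lower and 4 higher, against 12.8% and 13.5% of all such genes.

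Progenitor and stem markers were lower in Huh7 in 8 of 22 cases and higher in 1, and the floored median log2 ratio was 0. All 8 were among the 15 with a mean of 64 or more, against 12.8% lower among all such genes, and on the ATO arrays 7 were lower and 3 higher. KRT19, a keratin of bile duct and progenitor cells, was at 5.53 in Huh7 and 1185 in Hep3B. EPCAM, an adhesion molecule of progenitors, was at 1092 and 4700.3, SOX4 at 628 and 3872, and LGR5, a receptor that amplifies Wnt signals, at 42.3 and 395. PROM1, which encodes the surface marker CD133 used in the study to select stem-like cells, was at 729 and 1641. The exception was ABCG2, the efflux pump of side-population cells, at 319.8 in Huh7 and 25.7 in Hep3B. NOTCH1 was at 51.8 and 132. NANOG was at 11.2 and 8.39 and SOX2 at 24.9 and 43.8, and neither was called. POU5F1 was not analysed here.

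Nitrogen metabolism differed in both directions. CPS1, which makes carbamoyl phosphate in the first step of the urea cycle, was at 2064 in Huh7 and 39.0 in Hep3B, 52.9-fold higher in Huh7, and its second probe set read 859 and 9.30. SLC25A15, which carries ornithine into mitochondria, was at 2476 and 159.7, and OAT, which degrades ornithine, was at 2572 and 419. ASS1, which joins citrulline and aspartate, was at 3890.3 and 936. These 4 were all higher in Huh7, but they were picked for their size, ASS1 after its value was seen. Other measured urea cycle genes, among them OTC, ASL and ARG1, are not described here, so the 4 do not speak for the pathway. In the other direction, HAL, which removes ammonia from histidine, was at 8.81 and 862, GLUL, which fixes ammonia into glutamine, at 514 and 2428, and GLDC, a subunit of the glycine cleavage system, at 348 and 1309. Of 37 genes of the list, 7 were higher and 7 lower, and on the ATO arrays 6 were higher and 8 lower. With a mean of 64 or more there were 24, of which 7 were higher and 6 lower, against 13.5% and 12.8% of all such genes.

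Glucose metabolism had 10 of 35 genes higher in Huh7 and 4 lower, with a median log2 ratio of 0.46. Among the 28 with a mean of 64 or more, 10 were higher, against 13.5% of all such genes, and 2 lower. On the ATO arrays 6 of the 35 were higher and 5 lower. The glucose transporter SLC2A3 was at 3357 in Huh7 and 8.96 in Hep3B, a floored ratio of 105 and the highest in favour of Huh7, and the hepatocyte transporter SLC2A2 was at 586 and 54.1. Of the hexokinases, which trap glucose in the cell, HK1 was at 862 and 34.4, whereas HK2 was at 191 and 728. PFKP, the platelet form of phosphofructokinase, was at 1603 and 24.8, and the liver form PFKL was at 206 and 149.5. Thus HK1 and PFKP were near or under the floor in Hep3B, and HK2 was higher there. Of 6 genes of glucose release, 3 were higher in Huh7 and the others were not called. PCK1, which commits carbon to gluconeogenesis, was at 243 and 7.22, and G6PC1, the glucose-6-phosphatase, was at 213 and 2.51. G6PC1 was at 20.1 and 3.67 on the ATO arrays and was dim in both lines there. PCK2, the mitochondrial relative of PCK1, was at 428 and 164 with DMSO and at 560.1 and 569 with ATO. SLC37A4, the glucose-6-phosphate carrier, was at 714 and 399, FBP1, the fructose-bisphosphatase, at 21.3 and 46.4, and PC, pyruvate carboxylase, at 274 and 485.

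Drug and steroid enzymes included some of the largest differences in both directions, with 7 of 52 phase I genes higher and 5 lower, and 9 of 41 phase II genes higher and 9 lower. Of the 19 phase I genes with a mean of 64 or more, 7 were higher and 2 lower, against 13.5% and 12.8% of all such genes. Of the 25 phase II genes of that brightness, 8 were higher and 8 lower. On the ATO arrays 4 phase I genes were higher and 6 lower. NNMT, which methylates nicotinamide, read 1961 in Huh7 and 10.7 in Hep3B, and GSTP1, the pi-class glutathione transferase, was at 1559 and 18.3. NQO1, a quinone reductase, was at 238 and 49.3, and CYP1A1, the enzyme induced by aryl hydrocarbons, at 386 and 40.6. The Hep3B array had the higher value for MGST1, the microsomal glutathione transferase, at 4.68 and 3013, and for GSTT1, at 6.37 and 222. MGST1 is read by a probe set ending in _x_at, and all 3 of its bright probe sets were lower in Huh7. The sulfotransferases SULT1C2 and SULT2A1 were at 29.5 and 704 and at 24.9 and 344, and the glucuronosyltransferase UGT2B4 at 25.1 and 524. MAOB, which oxidizes amines, was at 14.7 and 795. Of the 18 glutathione transferases measured, 5 were higher in Huh7, 4 lower and 9 not called.

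Among 29 genes of bile acid and membrane transport, 15 were dim on both arrays, 7 were higher in Huh7 and 6 lower, against 3 and 6 on the ATO arrays. At a mean of 64 or more, 6 of 11 were higher and 4 lower with DMSO, against 13.5% and 12.8% of all such genes. The canalicular pump ABCC2 was at 396 in Huh7 and 76.8 in Hep3B, whereas its basolateral relative ABCC3 was at 15.4 and 429 and the drug pump ABCB1 at 6.66 and 107. Of 26 lipoprotein genes, 21 were not called. APOA2 was at 3246 and 13938 and APOA1, read by a probe set ending in _x_at, at 1046 and 4239.9, and ANGPTL4, an inhibitor of lipoprotein lipase, was at 516 and 39.1. Genes of cholesterol and fatty acid synthesis were lower in Huh7 in 9 of 45 cases and higher in 4, and on the ATO arrays lower in 14 and higher in 2. At a mean of 64 or more, 8 of 37 were lower and 4 higher with DMSO, against 12.8% and 13.5% of all such genes. The lipid droplet proteins PNPLA3 and PLIN2 were at 41.3 and 364 and at 817 and 3387, HMGCS1, an early enzyme of the mevalonate pathway, at 373 and 1232, and the lipogenic factor SREBF1 at 138 and 309. ACADM, which oxidizes medium-chain fatty acids, was at 1910.0 and 538.

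Complement genes had the lowest median of the lists shown in the plot of list members, a log2 ratio of -0.77 with the floor and -1.43 without it. Of 27 measured, 12 were lower in Huh7, or 44.4%, against 6.83% of all genes, and 1 was higher. Among the 17 with a mean of 64 or more, 10 were lower, against 12.8% of all genes of that brightness. The 2 chains of the C4b-binding protein, an inhibitor of the cascade, were at 14.0 and 589 for C4BPA and at 14.8 and 770.2 for C4BPB. The inhibitor CFI was at 57.6 and 843, the protease precursor C2 at 25.8 and 298, and the chaperone-like CLU at 258 and 2299.6. C3, the central component, was bright on both arrays, at 2740.0 and 4669. Coagulation genes were lower in 9 of 33 cases and higher in 6, of which 3 were the fibrinogen chains, and on the ATO arrays lower in 10 and higher in 1. Among the 20 with a mean of 64 or more, the 9 lower and 5 higher compare with 12.8% and 13.5% of all such genes. SERPINA5 and SERPIND1, inhibitors of clotting proteases, were at 12.2 and 1059 and at 16.5 and 1010.0. F7 was at 113 and 701, F10 at 107 and 346, and KNG1, the precursor of kinins, at 75.9 and 925.

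**Figure D4:**
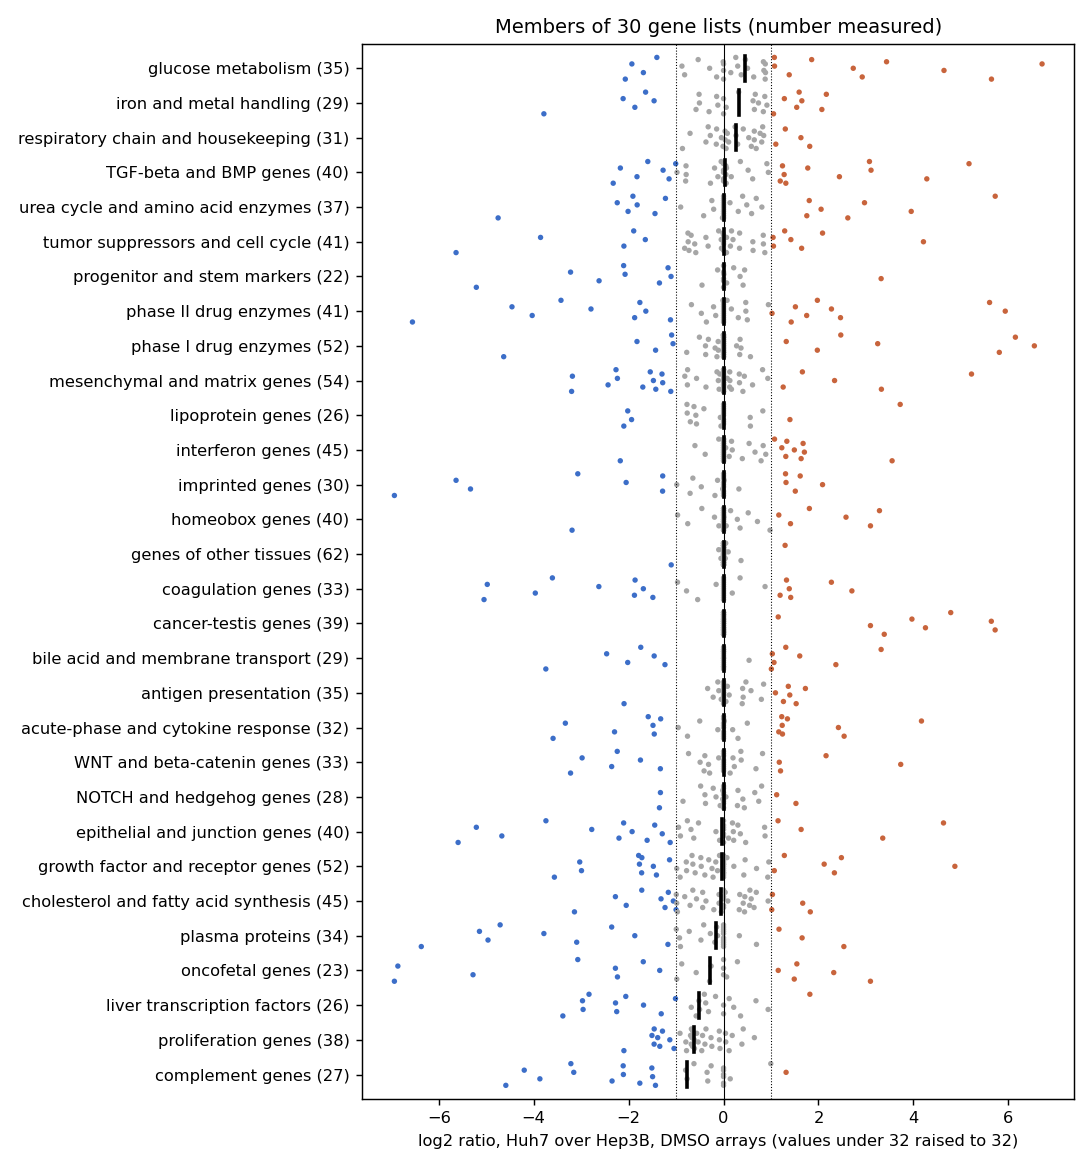
Each point is 1 member of a gene list, placed by its log2 ratio of Huh7 over Hep3B on the DMSO arrays with the floor of 32; orange and blue mark 2-fold, thick bars the median of these ratios, and numbers in parentheses the genes measured. Complement genes lie lowest, with a median of -0.77, glucose metabolism lies highest, with 0.46, and most lists hold members on both sides.

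The receptors of the interleukin 6 family, whose signals run through JAK1 and STAT3, a pathway the study examined, differed by more than JAK1 and STAT3 did in 2 cases. OSMR, the receptor of oncostatin M, read 577 in Huh7 and 10.4 in Hep3B, and IL6R at 589 and 101. IL6ST, the shared signal chain, was at 486 and 528, LIFR at 15.7 and 5.94, and the ligand LIF at 32.4 and 26.1. JAK1 was at 1615 and 721, a ratio of 2.24 on both pairs of arrays, and STAT3 at 347 and 281, under 2-fold. SOCS2, a feedback inhibitor, was at 305 and 57.0. ORM1, an acute-phase glycoprotein, was at 239 and 2881, the interleukin 1 co-receptor IL1RAP at 40.3 and 407, and the chemokine CCL20 at 742 and 3649.6. CCL20 was at 1690.1 and 1833 with ATO, a ratio of 1.08. In the whole list of acute-phase and cytokine genes, 8 of 32 were higher and 7 lower, and on the ATO arrays 8 were higher and 3 lower. At a mean of 64 or more, 7 of 19 were higher and 6 lower with DMSO, against 13.5% and 12.8% of all such genes.

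Growth factor genes were higher in 6 of 52 cases and lower in 10, and on the ATO arrays 9 were higher and 9 lower. At a mean of 64 or more, 6 of 31 were higher and 10 lower, against 13.5% and 12.8% of all such genes. IGFBP1, a binding protein made by liver, was at 5640.3 in Huh7 and 192 in Hep3B, IGFBP3 at 4561 and 903, and the receptor IGF1R at 325 and 74.7. IRS2, the adaptor of insulin signals, was at 220.1 and 1799. FGFR2 was at 6.60 and 379 and the ligand PDGFA at 60.5 and 482. In the TGF-beta and BMP list, 10 of 40 genes were higher and 7 lower, and on the ATO arrays 11 were higher and 6 lower. All 10 and 7 were among the 31 with a mean of 64 or more, against 13.5% and 12.8% of all such genes. The co-receptor TGFBR3 was at 1465 and 40.6 and the ligand BMP6 at 623 and 14.5, and FST, which binds activins, at 2329.5 and 276. ID1, ID3 and ID4, which are direct targets of BMP signals, were at 3465 and 1013, 1788 and 207, and 465 and 85.5. BMP2 was at 27.1 and 160.4 and the repressor SKIL at 240.1 and 1084, so the ligands BMP6 and BMP2 differed in opposite directions.

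Among Wnt genes, 4 of 33 were higher and 6 lower, and on the ATO arrays 4 were higher and 5 lower. All of those called with DMSO were among the 20 with a mean of 64 or more, against 13.5% higher and 12.8% lower among all such genes. The transcription factor LEF1 read 510.3 in Huh7 and 38.4 in Hep3B, and its relative TCF7L1 at 56.9 and 449. The secreted inhibitor DKK1 was at 1522 and 7805, whereas DKK3 was at 697 and 156. GLUL and LGR5, given above, are also targets of beta-catenin in liver and were lower in Huh7. Of 28 NOTCH and hedgehog genes, 24 were not called, and the ligand JAG1 was at 495 and 1246.

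Epithelial and mesenchymal genes were both lower in Huh7 in more cases than they were higher. Of 40 epithelial and junction genes, 12 were lower in Huh7 and 4 higher, and of 54 mesenchymal and matrix genes, 12 were lower and 5 higher. Among those with a mean of 64 or more, 12 of 26 epithelial and 11 of 31 mesenchymal genes were lower, against 12.8% of all such genes. On the ATO arrays 13 epithelial genes were lower and 6 higher, and 9 mesenchymal genes were lower and 9 higher. MAL2, a protein of apical transport, read 5.98 in Huh7 and 1547 in Hep3B, and the splicing factor ESRP1 at 3.90 and 816. The protease inhibitors SPINT1 and SPINT2 were at 6.97 and 219.5 and at 796 and 12.2, each dim in the line where the other was bright. E-cadherin, CDH1, was at 578 and 894, and vimentin, VIM, at 2348 and 2145, and neither was called. KRT8 and KRT18, the keratins of hepatocytes, were bright in both lines, at 2869 and 2327 and at 6196 and 4485. The receptor kinase AXL was at 1198 and 7.85, the gap junction gene GJA1 at 1620.0 and 158, and ITGA5, a fibronectin receptor chain, at 412 and 81.5. On the other side were THBS1, at 16.6 and 295, and the cadherin CDH6, at 8.93 and 291.

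Tumor suppressors and cell cycle genes had 7 of 41 higher and 5 lower, and on the ATO arrays 5 higher and 6 lower. All of those called with DMSO were among the 33 with a mean of 64 or more, against 13.5% higher and 12.8% lower among all such genes. SMARCA4, an ATPase of the SWI/SNF complex, read 104 in Huh7 and 1502 in Hep3B, and all 7 of its bright probe sets were lower in Huh7. CDKN1C, an imprinted inhibitor of cyclin-dependent kinases, was at 14.2 and 1594 with all 4 bright probe sets on the same side, and CDKN2A at 243 and 904. RPS6KA3, a kinase downstream of ERK, was at 593 and 8.45 and thus dim in Hep3B, as RB1 was. PMAIP1, which promotes cell death at mitochondria, was at 223 and 5.48, and CDKN1A, an inhibitor of cyclin-dependent kinases, at 224 and 83.9. BCL2 was at 39.9 and 38.2.

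Proliferation genes were lower in Huh7 in 9 of 38 cases and higher in 0, with a median log2 ratio of -0.62. All 38 had a mean of 64 or more, so that 23.7% were lower, against 12.8% of all such genes. The helicase subunit MCM2 was at 377 in Huh7 and 1073 in Hep3B, TOP2A, which untangles DNA, at 686 and 1890.4, and CDK1 at 723 and 1765. MKI67, the usual marker of cycling cells, was at 442 and 469.6. On the ATO arrays 2 of the 38 were lower.

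Some cancer-testis and homeobox genes, and GBP2 of the interferon genes, were dim in Hep3B and not in Huh7. Of 39 cancer-testis genes, which are normally confined to the germline, 30 were dim on both arrays, 8 were higher in Huh7 and 0 lower. The 8 are 20.5% of the list, against 7.16% higher among all genes. MAGEA10 and MAGEA4 were at 611 and 11.7 and at 502 and 9.07, and DDX43, an RNA helicase, at 335 and 20.7. MAGEA6, MAGEA12 and CTAG2 were also higher, and are read by probe sets ending in _x_at. All 8 were called the same way on the ATO arrays. Of 40 homeobox genes, 20 were dim on both arrays, 6 higher and 1 lower. HOXC6 was at 312 and 3.67, HOXC10 at 191 and 10.5 and LHX2 at 274 and 4.52, against MEIS2 at 115 and 1049.6. Interferon genes were higher in 9 of 45 cases and lower in 1, mostly by little, and the most different was the guanylate-binding protein GBP2 at 375 and 24.3. Among the 13 interferon genes with a mean of 64 or more, 7 were higher and 1 lower, against 13.5% and 12.8% of all such genes. ISG15 was at 492 and 210.2. On the ATO arrays 4 of the 45 were called higher. Antigen presentation genes were higher in 6 of 35 cases and lower in 1, and on the ATO arrays in 2 and 1, against 7.16% and 6.83% of all genes with DMSO, with TAPBP, which loads peptides, at 376 and 143, and CD74, the invariant chain, at 23.1 and 137.

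Imprinted genes, which are read from 1 parental copy, gave 3 of the 20 lowest genes. DLK1, CDKN1C and MEST were all dim in Huh7, MEST being at 7.42 in Huh7 and 1290.5 in Hep3B, and PEG10 was lower. BLCAP and ZNF331 were higher, at 532 and 174 and at 373 and 131. In all, 7 of 30 were lower and 5 higher, and on the ATO arrays 6 were lower and 4 higher. With a mean of 64 or more there were 17, of which 7 were lower and 3 higher, against 12.8% and 13.5% of all such genes. Iron and metal genes were higher in 7 of 29 cases and lower in 5, and on the ATO arrays in 6 and 4. At a mean of 64 or more, 7 of 24 were higher and 4 lower, against 13.5% and 12.8% of all such genes. The metallothioneins MT1X and MT2A, both read by probe sets ending in _x_at, were at 413 and 92.0 and at 579 and 192, the heme oxygenase HMOX1 at 303 and 96.5, and the copper pump ATP7A at 196 and 46.7. The zinc and manganese carrier SLC30A10 was at 82.4 and 357.

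The 20 most different genes in each direction, leaving out probe sets ending in _x_at, held several outside these lists. UCA1, a long noncoding RNA, was at 3591 in Huh7 and 34.3 in Hep3B, GTSF1, a germline gene of the piRNA pathway, at 2728 and 23.8, DNAJC15, a mitochondrial co-chaperone, at 1112 and 5.11, TPM2, a tropomyosin, at 1486 and 47.0, and UCP2, a mitochondrial carrier, at 948 and 10.3. These were near or under the floor in Hep3B. Lower in Huh7 were MBNL3, a splicing regulator, at 22.6 and 2792, MFAP2, a microfibril protein, at 21.3 and 1415, PLCB1, a phospholipase, at 6.85 and 1150.4, ENPP2, which makes lysophosphatidic acid, at 4.42 and 997, and ST6GAL1, which adds sialic acid to glycoproteins, at 49.5 and 1453. All 10 kept their side on the ATO arrays with a floored ratio over 16. They were picked from the genes outside the lists and do not stand for all of these. S100A14, also outside them, was 26.4-fold lower in Huh7 with DMSO and 9.02-fold lower with ATO.

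A stricter rule marked genes that were on in 1 line and dim in the other, at 4 or more times the floor against 32 or less. It found 153 genes on in Huh7 and dim in Hep3B, or 0.774% of those measured, and 182 on in Hep3B and dim in Huh7, or 0.92%. On the ATO arrays 93 of the 153 and 124 of the 182 met the same rule. Promoter base composition was described for the 115 and 141 of these genes that RefSeq windows matched. In windows of 250 bases before and 50 after each RefSeq start, the median number of CG pairs was 22 in the 173 windows of the genes on in Huh7 and 12 in the 262 windows of those on in Hep3B. It was 21 for the windows of all measured genes, close to the 22, 26 for genes at 1000 or more on both arrays and 9 for genes dim on both. The motif GTTAAT, searched on both strands, was in 9.92% of the windows of genes on in Hep3B only and in 3.47% of those on in Huh7 only, against 5.41% of the windows of all measured genes, 3.44% for genes at 1000 or more on both arrays and 7.33% for genes dim on both. Over all 34796 windows, with genes that the array did not measure, it was 6.91%. A gene can have several windows, so these are shares of windows, and a match describes letters, not binding. The 9.92% stands for 26 of 262 windows. The motif is rich in A and T, and whether its share follows base composition was not tested. ALB, AFP and APOH were above the floor on both arrays and are not among these genes, whereas C4BPA is.

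GSTP1 is an example of a gene on in Huh7 and dim in Hep3B whose promoter is rich in CG pairs, with 36 in its window. The 150 bases before its start, at chr11:67583662-67583811 on the plus strand of GRCh38.p14, are shown with the 21 CG pairs in capitals, in contrast to the promoters of ALB, AFP, APOH and C4BPA above, which have 4, 1, 3 and 5 in their windows.
GSTP1: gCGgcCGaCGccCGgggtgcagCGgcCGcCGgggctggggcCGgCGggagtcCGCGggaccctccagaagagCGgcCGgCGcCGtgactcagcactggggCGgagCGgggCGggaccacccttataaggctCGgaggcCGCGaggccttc
DNA methylation was not measured in these samples, and the base composition of a promoter says nothing of its state in either line.

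Differences also followed the order of genes along the chromosomes. The order came from RefSeq, for the 9741 genes at 64 or more on the brighter array. Where 25 neighbours in a row were summarised by their median, chromosome 1 held 165 consecutive genes, from JAK1 to WDR3, with a running median log2 ratio of 0.5 or more, taken without the floor, as for the other stretches. In this stretch 110 genes, or 66.7%, were higher in Huh7 and 4 lower, the median log2 ratio was 1.41, and it was 1.32 on the ATO arrays. JAK1, ACADM, TGFBR3 and GSTM2 lie in it. All stretches were picked by the DMSO ratios themselves, so their DMSO shares and medians follow in part from that choice. A stretch of 105 genes on chromosome 4, from MRFAP1L2 to CXCL8, was lower in Huh7, with a median log2 ratio of -0.85, and ALB and AFP lie in it next to its end. On chromosome 13, 46 genes from NAA16 to KLF5 were higher, with a median of 1.09, RB1 among them, and 32 genes from UGGT2 to F7 were lower, with a median of -0.98. IRS2 lies in the latter, which overlaps a run of 9 genes, all lower, with F7, F10 and PROZ. On chromosome 11 a stretch of 176 genes from FOLR1 to ETS1, NNMT among them, had a median of 0.83. On the X chromosome 101 genes from GSPT2 to NKRF had a median of 1.04, including PGK1 at 7724 and 2495.

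Unbroken runs of called genes were also listed. They come from the same DMSO ratios and gene order that picked the stretches, so they are not a second observation of them. There were 19 runs of 5 or more neighbours all called the same way, 13 higher in Huh7 and 6 lower, and 8 of the 13 were on chromosome 1, with 76 genes. The longest held 13 genes, and 1 of these ran from PSMA5 to KCNC4 and included the glutathione transferases GSTM1, GSTM2, GSTM3 and GSTM4, and all 13 were higher on the ATO arrays too. RB1 lay in a run of 6 from ITM2B to EBPL, in which every gene was higher in Huh7 on both pairs of arrays, and C4BPA and C4BPB lay in a run of 6 from C1orf116 to CD55, in which every gene was lower on both. The DNA of these cells was not analysed here.

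**Figure D5:**
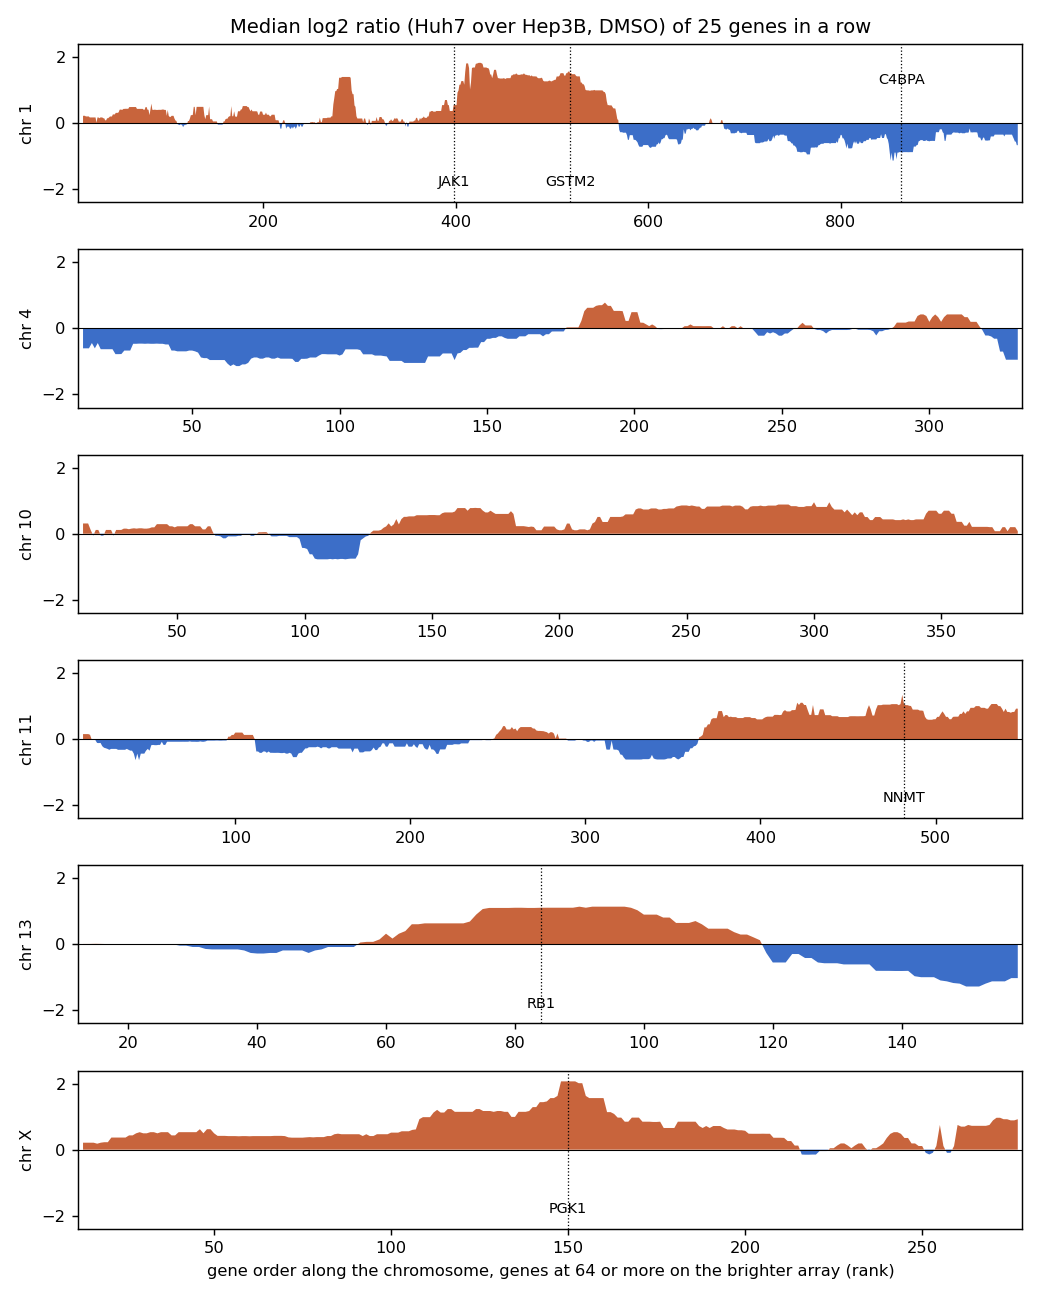
Each panel is 1 chromosome, with genes in RefSeq order on the x axis as ranks and the median log2 ratio, without the floor, of Huh7 over Hep3B of 25 neighbouring genes on the y axis, DMSO arrays; orange is higher and blue lower in Huh7. A block on chromosome 1 that holds JAK1 and GSTM2, and the region around RB1 on chromosome 13, lie above 0, while the first part of chromosome 4 and the end of chromosome 13 lie below it.

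Genes that should be silent or even in both lines gave the limits of the reading. Of 62 genes of other tissues, such as muscle, brain and eye, 54 were under 32 on both arrays, with medians of 10.1 and 8.77, and 2 were called. All 6 endothelial markers and 6 of 8 fibroblast and stellate markers were dim on both arrays. Of 6 leukocyte and blood markers 5 were dim, and LYZ was at 411 and 176. GAPDH and ACTB, both read by probe sets ending in _x_at, were at 12433 and 10119 and at 7667 and 9919. Of 31 respiratory chain and housekeeping genes 27 were not called, and the 4 that were, all higher in Huh7, included PGK1 and HPRT1, which lie on the X chromosome.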

How the data were processed

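Total RNA of 4 cultures was read on Affymetrix U133 Plus 2.0 arrays. Background and probe summaries came from Robust Multi-array Average, run by the authors in simpleaffy with log transformation and between-array normalization. What was deposited is a linear intensity per probe set, with array medians of 15.8 to 16.3 and maxima of 13416 to 14163.5. The step back from the log scale is not given in the sources used here, and neither is the number of arrays behind a column, which is taken as 1. The number of arrays limits the precision.

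Probe sets were named from GEO's platform annotation, which can be old: 1801 had several genes and were left out, 11777 were listed with none, and 0 symbols needed an update. A gene was read from its probe set of highest mean over all 4 arrays. Ratios were computed in Python 3.11 with pandas and numpy, with the floor of 32 and the thresholds of 2-fold, 4 times the floor and a mean of 64. RefSeq (GRCh38.p14) gave gene order and promoter windows. The 36 gene lists and the naming rule were chosen with earlier results of these data known. The rule took the 6 members of each list with the largest floored ratio (any member of lists of 25 or fewer), the 20 highest and 20 lowest genes and genes the study measured otherwise, as well as RB1, AXIN1, AFP and ALB. Named outside it, after their values were seen, were ACTB, APOB, ASS1, BLCAP, C3, CDH1, CDK1, CEBPB, F10, FBP1, FGG, FOXA2, FOXA3, GAPDH, GATA6, GLDC, GSTT1, HK2, ID1, IGF1R, IL6ST, ISG15, KRT18, LGALS14, LIFR, MKI67, MT2A, NQO1, PC, PCDH9, PCK2, PFKL, PROX1, SKIL, SPINT1, SREBF1, VIM, ZNF331 and the genes that bound a stretch or run. Steps were tested on simulated data. Alternatives covered other probe set choices, floors, normalizations and thresholds, and the ATO arrays.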

Additional observations from a re-analysis of the deposited data

Results flagged for a closer look

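PCDH9, a protocadherin, was called higher in Huh7 on the DMSO arrays, with a floored log2 ratio of 1.43 from 86.5 in Huh7 and 28.3 in Hep3B, and lower on the ATO arrays, at 26.0 and 178. LGALS14, a galectin, was lower on the DMSO arrays, with a log2 ratio of -1.18 from a value at the floor in Huh7 and 72.5 in Hep3B, and higher on the ATO arrays, at 85.5 and 23.4. Every array of one pair thus went against the other pair, with 1 array on each side, and the difference between the pairs was not tested.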

How the results depend on the processing

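No paired analysis was possible because each line has 1 DMSO array and the labels hold no replicate numbers to pair. The ATO arrays differ in treatment and were kept as a second reading. The counts of 1416 genes higher and 1350 lower stayed within 1.5 times with no floor or a floor of 16 or 64 (1102 to 1826 higher, 1069 to 1727 lower), quantile normalization, median centring, a choice of probe set by the DMSO arrays alone, probe sets ending in _x_at or _s_at left out, and the ATO arrays. With a threshold of 3-fold they were 589 and 609, and averaging every probe set of a gene geometrically left 812 lower. The geometric mean also brought the genes on in Huh7 or Hep3B only to 94 and 100, a dim limit of 16 to 86 and 118, and an on limit of 8 times the floor to 72 and 76. TAP2 was the 1 called gene among those named by rule that turned direction, to a log2 ratio of -0.47 without probe sets ending in _x_at or _s_at. Of the 197 called genes named by rule, 32 lost their call with the geometric mean, RB1, BMP6 and LEF1 among them, and 30 on the ATO arrays. Without probe sets ending in _x_at or _s_at, 157 could be recomputed and 16 lost their call, among them DLK1, MGST1 and SMARCA4. No detection call was used here, so a value under 32 limits a level and does not show that a gene is silent.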
